A study of Mus musculus with 33 samples.

Results

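Interferon-stimulated genes were followed across the stromal cells of the adult mouse colon. The set holds 38 genes, which were selected by symbol: 28 are known mainly as targets of type I interferon and 10 mainly as targets of type II interferon. They are 38 of the 31053 genes counted in 3 single-cell libraries, and 37 of them had both an entry and counts. Mx2 was not analysed here. Many of these genes answer both kinds of interferon, so the division is by the better known inducer and no interferon was given in the study.

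Type I interferons (the alpha and beta interferons and their relatives) signal through the receptor chains Ifnar1 and Ifnar2 and the kinases Jak1 and Tyk2 to a transcription complex that contains Stat2 and Irf9 and binds the interferon-stimulated response element (ISRE). Type II interferon is the product of the Ifng gene, made mainly by T cells, natural killer cells and innate lymphoid cells. It signals through Ifngr1, Ifngr2, Jak1 and Jak2 to gamma-activated sites (GAS) in its target genes, and it induces Irf1, which binds ISRE-like sequence in turn. In the gut these programmes are known for restraining viruses and intracellular microbes, and stromal cells are able to carry both.

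All 3 libraries were made from colons of adult male and female mice that were perfused with PBS, with the outer muscle layer removed, after EDTA and collagenase digestion. The whole mesenchyme library (1 sample, genotype given as control) held cells sorted as negative for EpCAM, an epithelial protein, and CD45, a leukocyte protein. The GFP-low group (2 samples, replicates 1 and 2) came from PdgfraH2BeGFP mice, whose nuclear GFP reports Pdgfra, and held unstained cells sorted for a low GFP level. No group received a treatment, and the sort and the genotype differ together between the groups. The other 30 samples of the series (24 bulk RNA and 6 chromatin accessibility libraries) were not used here. Whether the replicates are different animals is not in the labels, and p-values below therefore measure only the spread between these libraries, which may be technical.

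Barcodes were kept as cells with 1000 or more UMIs, 500 or more genes and no more than 20% of UMIs from mitochondrial genes. Whole mesenchyme then held 6793 cells, replicate 1 of GFP-low 4834 and replicate 2 of GFP-low 6025, and sets of 3 values below keep that order. Median depth was 4429, 6446.5 and 7025 UMIs per cell. Pairs of libraries shared 6, 11 and 11 cell barcodes. Cells were clustered without any interferon-related gene and named from markers. The fibroblast classes were Cd81-high fibroblasts (468, 2947 and 4160 cells) and Cd81-low Adamdec1 fibroblasts (3333, 1198 and 1363 cells). Cd81 stood between 360 and 614 CPM (UMI counts scaled to a common library total) in every Cd81-high cluster and library of at least 20 cells and between 6.5 and 65.5 CPM in every Cd81-low one. Grem1 ranged from 95.4 to 3706 CPM within the Cd81-high class, so it did not mark all of its clusters. The libraries did not fill these classes with the same clusters. Of the Cd81-high clusters, number 1 held 1869 cells of GFP-low replicate 2 and fewer than 20 of replicate 1, whereas numbers 3 and 4 held 1280 and 1326 cells of replicate 1 and 26 and 57 of replicate 2. Of the Cd81-low clusters, number 0 led in whole mesenchyme, number 6 in replicate 1, and numbers 5 and 0 in replicate 2. Cluster 7 (170, 536 and 419 cells) met no marker rule and stayed unnamed. Genes of stress and inflammation led some named clusters: Myc, Mt2 and Il6 in cluster 1, C3 and Cfb in cluster 3, and Cxcl2, Cxcl5 and Areg in cluster 0.

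Promoters of 29 of the 38 members were matched in RefSeq (GRCm38.p6, 250 bases before to 50 bases after the start). The ISRE core GAAANNGAA, read on both strands, was present in 11 of 20 type I promoters (55%) and in 7 of 9 type II promoters (77.8%), against 9.76% of all 27025 gene promoters of the same length. The GAS core TTCNNNGAA was present in 5 of 20 type I promoters (25%) and 4 of 9 type II promoters (44.4%), against 9.55% of all. A match to either core is a description of the letters and not evidence of a bound site, and the cores can overlap each other. The stretches below carry the matches near the start in capitals. They are shown for the 4 type I genes with the highest variance over mean between Cd81-high cells, given below. The others are 6 type II genes: the GTPases Gbp2, Irgm1, Irgm2 and Igtp and the regulators Irf1 and Socs1.

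Ifit1: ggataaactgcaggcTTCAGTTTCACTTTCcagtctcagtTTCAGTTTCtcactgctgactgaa
Ifit3: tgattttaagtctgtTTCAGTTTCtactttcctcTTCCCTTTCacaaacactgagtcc
Isg15: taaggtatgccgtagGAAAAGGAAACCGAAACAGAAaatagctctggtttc
Rsad2: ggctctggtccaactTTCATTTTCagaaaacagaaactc
Gbp2: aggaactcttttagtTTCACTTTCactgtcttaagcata
Irgm1: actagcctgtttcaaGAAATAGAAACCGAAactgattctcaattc
Irgm2: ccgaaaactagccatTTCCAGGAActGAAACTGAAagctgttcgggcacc
Igtp: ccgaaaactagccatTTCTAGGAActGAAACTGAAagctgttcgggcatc
Irf1: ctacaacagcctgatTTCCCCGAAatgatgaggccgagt
Socs1: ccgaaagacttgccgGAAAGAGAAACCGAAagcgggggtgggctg

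Each is written 5′ to 3′ in the direction of its gene. On GRCm38.p6 the stretches lie at chr19:34640765-34640828 (Ifit1, plus strand), chr19:34583393-34583450 (Ifit3, plus strand), chr4:156200861-156200911 (Isg15, minus strand) and chr12:26456548-26456586 (Rsad2, minus strand). Those of the type II genes lie at chr3:142620590-142620628 (Gbp2, plus strand), chr11:48871421-48871465 (Irgm1, minus strand), chr11:58214887-58214936 (Irgm2, plus strand), chr11:58199496-58199545 (Igtp, plus strand), chr11:53769909-53769947 (Irf1, plus strand) and chr16:10785590-10785634 (Socs1, minus strand). Neither core was found in 7 of the 29 promoters. All of the matches in the type I stretches were ISRE cores, with 3 in Ifit1 and 3 overlapping ones in Isg15. The Ifit3 promoter also held 3, of which its stretch shows 2. Irf1 carried a GAS core alone. Igtp and Irgm2, neighbouring genes on chromosome 11, each carried a GAS core followed by an ISRE core, and 48 of the 50 bases shown were the same in both.

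Type II targets made up the larger part of the summed level in every class. The assay counts the 3′ end of each RNA, so a level does not scale with gene length. In Cd81-high fibroblasts the 10 type II members summed to 3973, 3684 and 3963 CPM, and the 27 type I members to 1431, 1717 and 1507 CPM. In Cd81-low fibroblasts the type II sum was 3257, 2399 and 2616 CPM and the type I sum 1054, 1070 and 971 CPM. For both sums the Cd81-high values of the 3 libraries lay above all 3 Cd81-low values. The order of the named classes was otherwise led by cells outside the fibroblasts. In whole mesenchyme the type I sum was 3116 CPM in blood endothelium (801 cells), 2914 in glia (65 cells) and 2806 in lymphatic endothelium (59 cells), then 1431 in Cd81-high fibroblasts, 1347 in pericytes, 1210 in Pdgfra-high subepithelial telocytes (1596 cells), 1054 in Cd81-low fibroblasts and 1023 in smooth muscle or myofibroblasts. The type II sum was 8269 CPM in glia, 5325 in blood endothelium and 5071 in lymphatic endothelium, and between 2521 and 3973 in the other named classes of at least 20 cells in that library. Blood and lymphatic endothelium, glia and pericytes had at least 20 cells in this library only. Telocytes and smooth muscle also had 25 and 23 cells in GFP-low replicate 1, which these orders leave out. Outside the fibroblasts the orders were not checked in a replicate, so neighbours in them are not set apart.

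**Figure D1:**
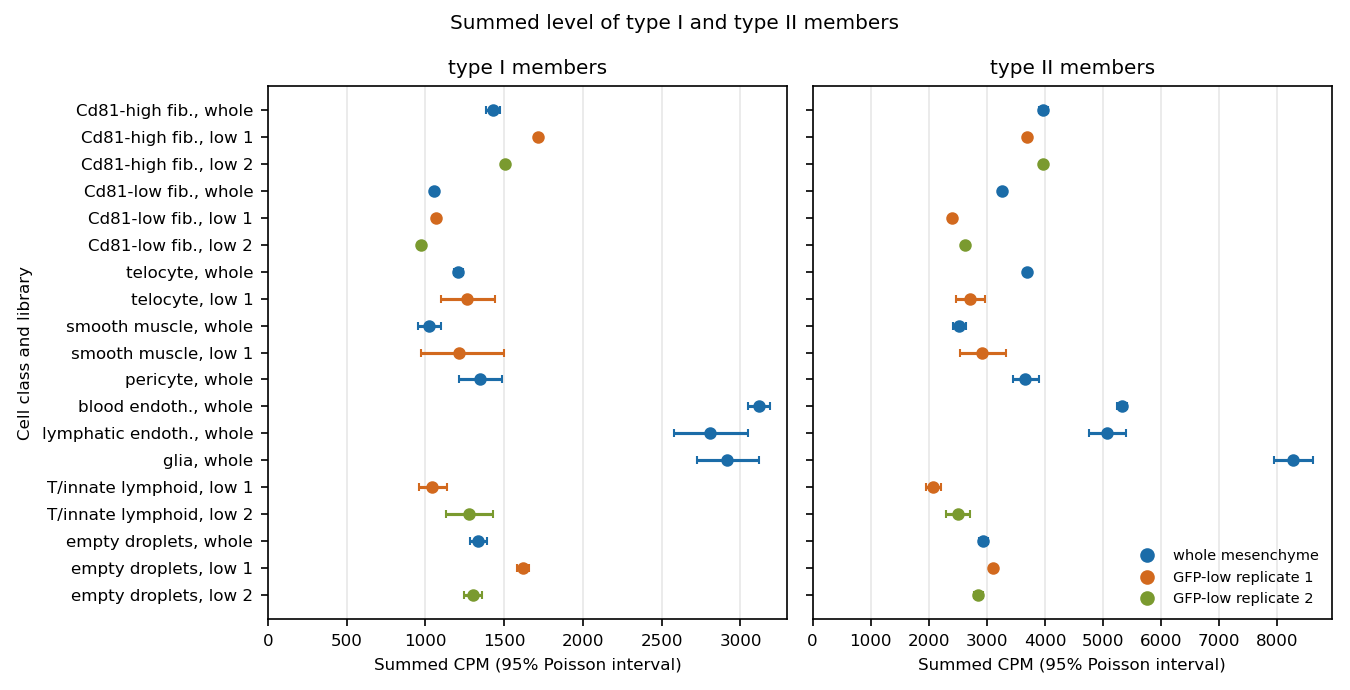
Summed level (CPM) of the type I members and of the type II members by cell class and library, with exact 95% Poisson intervals that cover counting error only, and the same sums in empty droplets. Endothelial classes and glia stand above the fibroblast classes, and the Cd81-high points lie above the Cd81-low points in each library.

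Free RNA carried much of the same signal. Barcodes with at most 100 UMIs, taken as empty droplets, held type I sums of 1335, 1617 and 1302 CPM and type II sums of 2935, 3102 and 2855 CPM. Isg15, a ubiquitin-like protein and a classic type I target, stood at 226, 224 and 229 CPM in empty droplets, against 168, 193 and 224 CPM in Cd81-high fibroblasts. In Cd81-high fibroblasts 27, 27 and 28 of the 37 measured members stood above their level in empty droplets, and in Cd81-low fibroblasts 18, 12 and 16 did. The share over all genes was not computed, so these counts are not read as particular to the members. With free RNA at these levels, a low level in a class is not evidence of transcription there. The comparisons below set classes or cells of the same library against each other.

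Among type I members, the most counted in fibroblasts was Bst2, which encodes tetherin, a membrane protein that holds budding virus at the cell surface. It stood at 275, 396 and 208 CPM in Cd81-high fibroblasts and 208, 312 and 204 CPM in Cd81-low fibroblasts, and at 499 CPM in blood endothelium and 772 CPM in lymphatic endothelium. Replicate 1 was the highest library in both fibroblast classes. Parp14, an ADP-ribosyltransferase, stood at 93.7, 82.2 and 94.8 CPM in Cd81-high and 95.4, 63.7 and 81.8 CPM in Cd81-low fibroblasts, so the ranges overlapped. Stat2 and Irf9, members of the type I transcription complex itself, stood at 73.8, 84.0 and 61.8 CPM and at 87.2, 64.3 and 66.8 CPM in Cd81-high fibroblasts. The Cd81-low values were 69.7, 66.9 and 56.5 CPM for Stat2 and 67.7, 49.2 and 51.0 CPM for Irf9. The ranges of the classes overlapped for both genes.

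The effector genes varied more. Ifit1, which binds RNA whose cap lacks host methylation, stood at 61.8, 95.6 and 160 CPM in Cd81-high fibroblasts and at 15.7, 15.5 and 26.5 CPM in Cd81-low fibroblasts. In whole mesenchyme it reached 197 CPM in both blood endothelium and glia. Every Cd81-high library lay above every Cd81-low library, and empty droplets (35.5, 53.2 and 113 CPM) lay between them in each. The clusters were not alike: Ifit1 stood at 257 CPM in cluster 1 of replicate 2 and 163 CPM in cluster 3 of replicate 1. In clusters 4 and 13 of replicate 1, 12 of replicate 2 and 8 of whole mesenchyme it stood at 32.4, 29.5, 23.3 and 22.4 CPM, within the 12.5 to 51.1 CPM of the Cd81-low clusters where it was counted. Cluster 4 alone holds 1326 of the 2947 Cd81-high cells of replicate 1. Isg15 in Cd81-low fibroblasts stood at 103, 61.6 and 70.1 CPM, and at 506 CPM in blood endothelium. Rsad2, encoding viperin, which makes an antiviral nucleotide, stood at 12.7, 23.2 and 32.7 CPM in Cd81-high and 3.2, 1.7 and 4.1 CPM in Cd81-low fibroblasts, and at 165 CPM in blood endothelium. Ifih1, encoding the RNA sensor MDA5, stood at 73.1, 89.1 and 73.9 CPM in Cd81-high and 47.6, 39.5 and 42.6 CPM in Cd81-low fibroblasts. For Rsad2 and Ifih1, too, the classes did not overlap.

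Among type II members, the most counted over both fibroblast classes was Iigp1, an immunity-related GTPase that attacks parasite vacuoles. It stood at 1282, 927 and 1096 CPM in Cd81-high and 1238, 831 and 970 CPM in Cd81-low fibroblasts, with 2242 CPM in blood endothelium and 1964 CPM in glia. Irf1, the transcription factor that relays the type II signal, stood at 1021, 641 and 1315 CPM in Cd81-high and 934, 417 and 736 CPM in Cd81-low fibroblasts, and at 2112 CPM in glia. Both genes overlapped between the fibroblast classes. Gbp2, a guanylate-binding protein, stood at 409, 415 and 451 CPM in Cd81-high and 220, 176 and 206 CPM in Cd81-low fibroblasts, and at 1182 CPM in glia, with no overlap between the fibroblast classes. Socs1, the feedback inhibitor of the Jak kinases, stood at 167, 457 and 308 CPM in Cd81-high and 202, 258 and 153 CPM in Cd81-low fibroblasts. Gbp7 stood at 228, 196 and 174 CPM in Cd81-high and 171, 119 and 145 CPM in Cd81-low fibroblasts, against 972 CPM in lymphatic endothelium. Outside the fibroblasts Iigp1, Irf1 and Gbp2 were the highest members of whole mesenchyme telocytes (1330, 1042 and 274 CPM) and of pericytes (1697, 632 and 246 CPM). They also led in the T or innate lymphoid cells of the GFP-low replicates (457, 358 and 272 CPM, then 922, 617 and 261 CPM) and in smooth muscle of whole mesenchyme (808, 675 and 285 CPM). In lymphatic endothelium Iigp1 (1774 CPM) was followed by Gbp7 and Bst2.

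**Figure D2:**
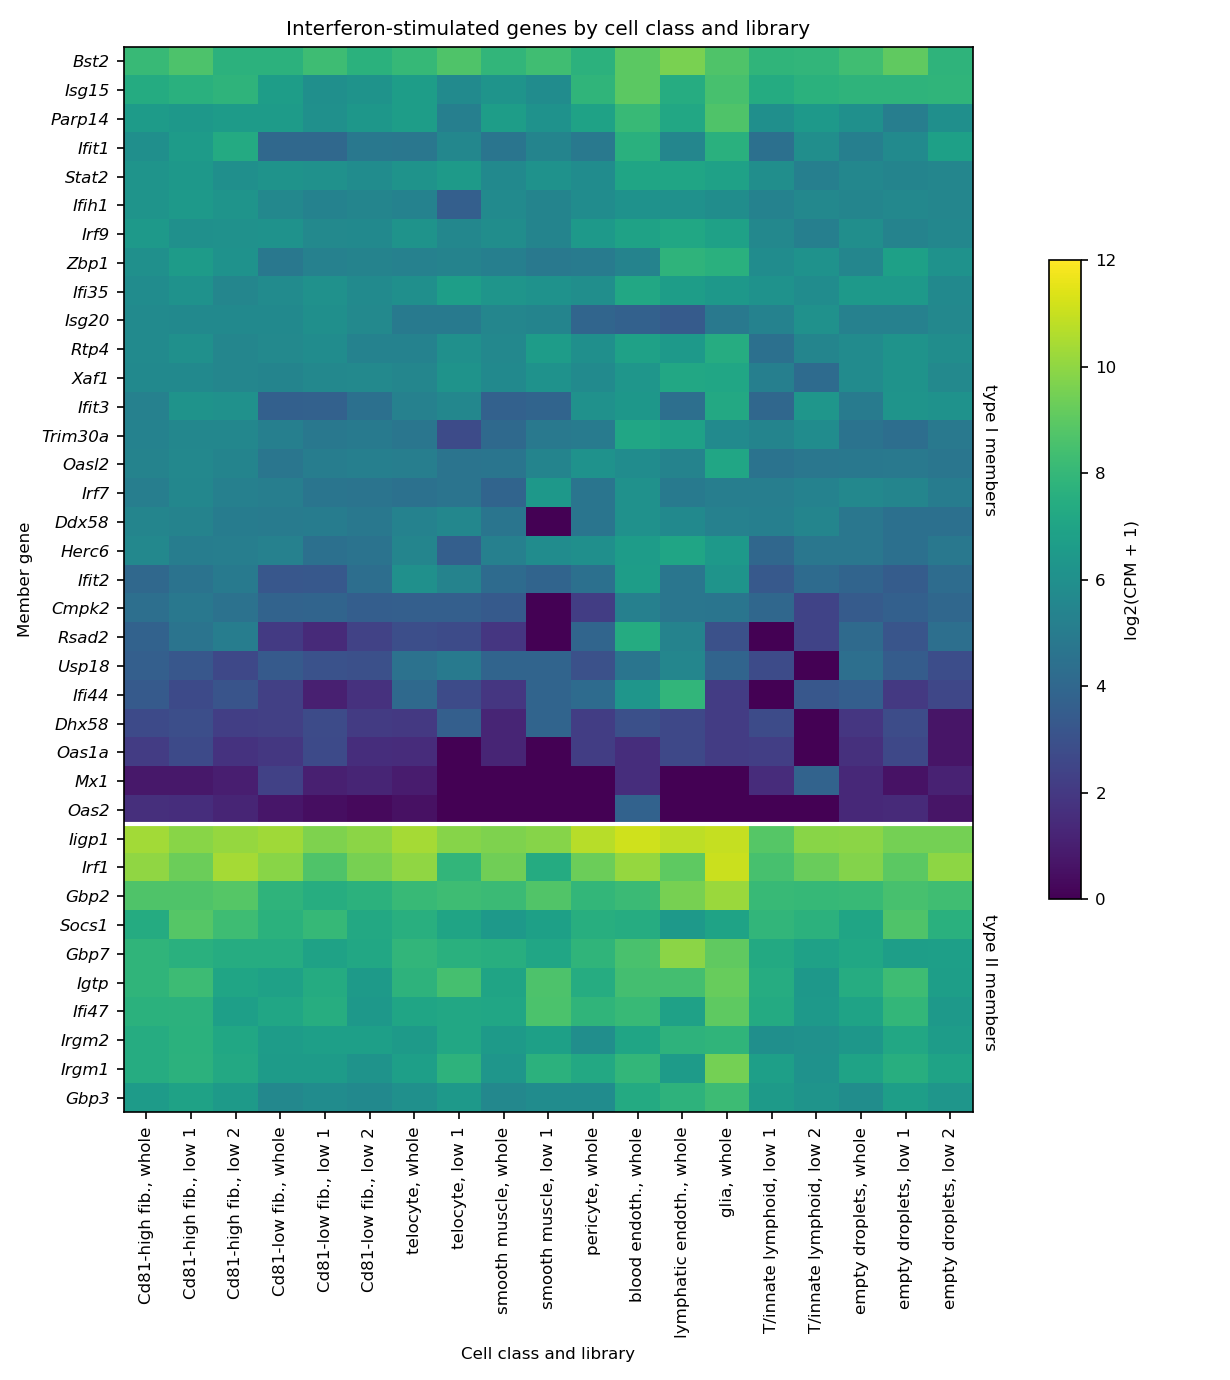
Level of each of the 37 measured members as log2(CPM + 1) (colour scale) in every class and library with at least 20 cells. Iigp1 and Irf1 are the highest members in most columns, and endothelial and glial columns are brighter for most type I members than fibroblast columns.

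Set against the pooled fibroblast classes of the same library, blood endothelium had 19 of 32 members with a mean of at least 20 CPM at least 2-fold higher, against 14.9% of all genes. Of these, 15 were type I (of 22) and 4 type II (of 10). The mean is over the pair of classes, so Rsad2, Ifi44, Ifit2, Ifit3 and Cmpk2, below 20 CPM in fibroblasts, entered only through endothelium. With the limit set on the fibroblast level alone, 14 of 27 members were at least 2-fold higher, against 6.81% of all genes. The fold was 36.4 for Rsad2, 16.6 for Ifi44 and 8.77 for Ifit1, while Isg20, an exonuclease, was the other way at 0.24. In glia 18 of 29 members were at least 2-fold higher (14.5% of all genes), with 10 of 19 type I and 8 of 10 type II, among them Ifit1 at 8.79 and Irgm1 at 6.75, and 16 of 27 with the limit on fibroblasts alone (6.94%). Ifit2 and Ifit3, below 20 CPM in fibroblasts, entered only through glia. Rsad2 in glia was at 1.52. In lymphatic endothelium 13 of 30 members were at least 2-fold higher (20.1% of all genes), with Ifi44 at 50.2 and Ifit1 at 2.01. Ifi44, Rsad2 and Usp18, below 20 CPM in fibroblasts, entered only through lymphatic endothelium. With the limit on fibroblasts alone the count was 10 of 27 (10.3%). Pericytes had 3 of 28 (14.2% of all genes), which is near the background. Ifit3 among them entered only through pericytes, and with the limit on fibroblasts alone the count was 2 of 27 (6.88%). Telocytes had 2 of 29, Ifit2 at 6.64 and Ifit3, against 4.58% of all genes. Both entered only through telocytes, and with the limit on fibroblasts alone the count was 0 of 27. Smooth muscle had 0 of 27 higher (6.57% of all genes) and 3 lower by the same fold, Irf7, Trim30a and Socs1 (6.19%). With the limit on fibroblasts alone the median log2 fold over the members was 1.01 in blood endothelium, 0.86 in lymphatic endothelium and 1.19 in glia, against -0.04, 0.02 and -0.10 over all genes. These are values of 1 library with no replicate check.

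The inducing genes were nearly absent from the stroma. Of 10 interferon genes looked for, Ifng had 168 UMIs in all cells and Ifnk had 1, in a Cd81-high fibroblast of GFP-low replicate 2. The other 8, Ifnb1 and the alpha, epsilon and lambda genes among them, had 0 UMIs, which allows up to 3 UMIs each over all cells by counting error alone. Ifng was counted in the few T or innate lymphoid cells carried along: 2 UMIs in 1 of 10 cells in whole mesenchyme, 107 UMIs in 27 of 83 cells in GFP-low replicate 1, and 53 UMIs in 9 of 35 cells in replicate 2. That is 200.3 CPM (exact 95% Poisson interval 164 to 242) and 230.4 CPM (173 to 301) in the GFP-low libraries. Cd81-high fibroblasts had 0, 1 and 0 Ifng UMIs and Cd81-low fibroblasts 2, 3 and 0, below the 1.64, 6.38 and 3.63 CPM of empty droplets. The 0 UMIs of an unstained or a CD45-negative sort limit only what these sorted cells held.

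Receptor genes were counted in both fibroblast classes. Ifngr1, the ligand-binding chain for type II interferon, stood at 219, 207 and 135 CPM in Cd81-high and 226, 348 and 220 CPM in Cd81-low fibroblasts. Ifnar2, a type I receptor chain, stood at 114, 134 and 120 CPM against 142, 160 and 127 CPM, and Il10rb, shared with the lambda interferon receptor, at 45.0, 69.2 and 41.4 CPM against 57.8, 77.1 and 47.0 CPM. These 3 and Ifnar1 were lower in the Cd81-high class of every library, of which Ifngr1 alone passed the test below. Ifngr2, the other type II chain, stood at 36.0, 40.8 and 27.6 CPM against 30.0, 46.6 and 33.5 CPM, so its direction differed between libraries. Jak1 stood at 366, 342 and 399 CPM in Cd81-high against 334, 256 and 275 CPM in Cd81-low fibroblasts. Socs3, a feedback inhibitor of cytokine receptors, stood at 906, 1155 and 1091 CPM against 1600, 1406 and 1022 CPM. Of the sensors and their adaptors, Irf3, Tbk1 and Tmem173 (the adaptor STING) had the most counts. Tmem173 stood at 21.3, 16.1 and 21.3 CPM in Cd81-high against 44.1, 24.5 and 31.3 CPM in Cd81-low fibroblasts.

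The comparison with replication was that of Cd81-high with Cd81-low fibroblasts, each summed per library and paired by library, over 6436 genes that had no part in forming the classes. By edgeR's quasi-likelihood test with Benjamini-Hochberg adjustment, 17 of 27 type I members and 8 of 10 type II members were higher in Cd81-high fibroblasts and 0 of either were lower. Of all genes tested 13.6% were higher and 14.7% lower. The median log2 fold change was 0.55 for type I members and 0.71 for type II members, against -0.005 for all genes. Within type I, 6 of the 7 genes used below to index responding cells passed (median 1.43), and 11 of the other 20 (median 0.39).

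Rsad2 had the largest change, 2.96 ± 0.26 (log2, SE, n = 3 libraries, adjusted p = 3.3e-05), followed by Ifit1 at 2.50 ± 0.15 (adjusted p = 4.2e-06). Both were higher in 3 of 3 libraries. The RNA-binding Ifit genes moved together, with Ifit3 at 2.04 and Ifit2 at 1.02. Ifit2 stood at 15.8, 22.9 and 30.0 CPM in Cd81-high and 8.7, 9.0 and 19.3 CPM in Cd81-low fibroblasts. Ifit3 stood at 37.1, 70.4 and 66.9 CPM against 11.6, 12.4 and 20.6 CPM, although reads of Ifit3 and its near-identical copy Ifit3b may have been split or dropped in counting. Isg15 rose by 1.43, and Cmpk2, a nucleotide kinase beside Rsad2 on its chromosome, by 0.98. Cmpk2 stood at 19.9, 27.1 and 22.2 CPM against 13.0, 13.8 and 11.0 CPM.

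Zbp1, which senses Z-form nucleic acid, stood at 64.9, 94.3 and 69.0 CPM against 26.9, 37.6 and 39.7 CPM, a change of 1.21 ± 0.11 (adjusted p = 5.8e-05), and the ranges did not overlap. Ifih1 rose by 0.95 and Ddx58, encoding RIG-I, by 0.43 (42.9, 39.6 and 32.4 CPM against 30.4, 32.1 and 27.3 CPM). The related regulator Dhx58 did not pass. Of the 2-5A synthetase family Oas2 rose by 2.18 ± 0.43 (adjusted p = 0.0049), on low counts (2.1, 2.0 and 1.3 CPM against 0.6, 0.4 and 0.2 CPM), and its relative Oasl2 by 0.55 (40.2, 47.3 and 41.8 CPM against 25.0, 33.1 and 35.3 CPM). Oas1a, whose family members are near-identical, did not pass. Ifi44 rose by 1.77 (9.6, 5.5 and 7.6 CPM against 3.9, 1.1 and 2.3 CPM).

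Irf7, which amplifies type I interferon transcription, rose by 0.65 and was higher in 2 of 3 libraries (34.3, 46.1 and 37.0 CPM against 34.6, 24.4 and 23.3 CPM). Irf9 rose by 0.46, and Stat2, at 0.27 ± 0.10 (adjusted p = 0.075), did not pass. Trim30a rose by 0.64 (38.4, 45.7 and 46.2 CPM against 35.4, 26.7 and 28.7 CPM) and Herc6, a ligase that attaches Isg15 in mice, by 0.63 (48.0, 32.9 and 34.2 CPM against 37.2, 20.3 and 23.1 CPM). Bst2 rose by 0.34. Usp18, which removes Isg15 and damps the type I receptor, stood at 11.3, 8.5 and 5.1 CPM against 9.4, 7.0 and 6.7 CPM and did not pass. Mx1, a dynamin-like antiviral GTPase, was the type I member with the lowest estimate, at -0.80, and did not pass. It stood at 0.7, 0.7 and 1.0 CPM in Cd81-high and 4.0, 1.1 and 1.4 CPM in Cd81-low fibroblasts. The other type I members that did not pass were Parp14, Rtp4, Xaf1, Ifi35 and Isg20.

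The type II members that rose were GTPases and Irf1. Gbp2 rose by 1.17, Irgm1 by 1.09, Gbp3 by 1.05, Igtp by 0.87, Irgm2 by 0.79, Irf1 by 0.61, Gbp7 by 0.55 and Ifi47 by 0.49. Irgm1 and Irgm2, which guard host membranes against the effector GTPases, stood at 169, 211 and 148 CPM against 94.7, 95.3 and 71.8 CPM and at 173, 202 and 142 CPM against 97.7, 107 and 108 CPM. Igtp, their close relative, stood at 228, 303 and 131 CPM against 114, 165 and 92.9 CPM, and reads of Igtp and Irgm2 or of the Gbp family may be shared between copies. Gbp3 stood at 93.7, 119 and 91.0 CPM against 48.1, 56.2 and 50.2 CPM. Ifi47 stood at 204, 211 and 108 CPM against 137, 175 and 82.9 CPM. Iigp1, at 0.21 (adjusted p = 0.18), and Socs1, at 0.62 (adjusted p = 0.084), did not pass.

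**Figure D3:**
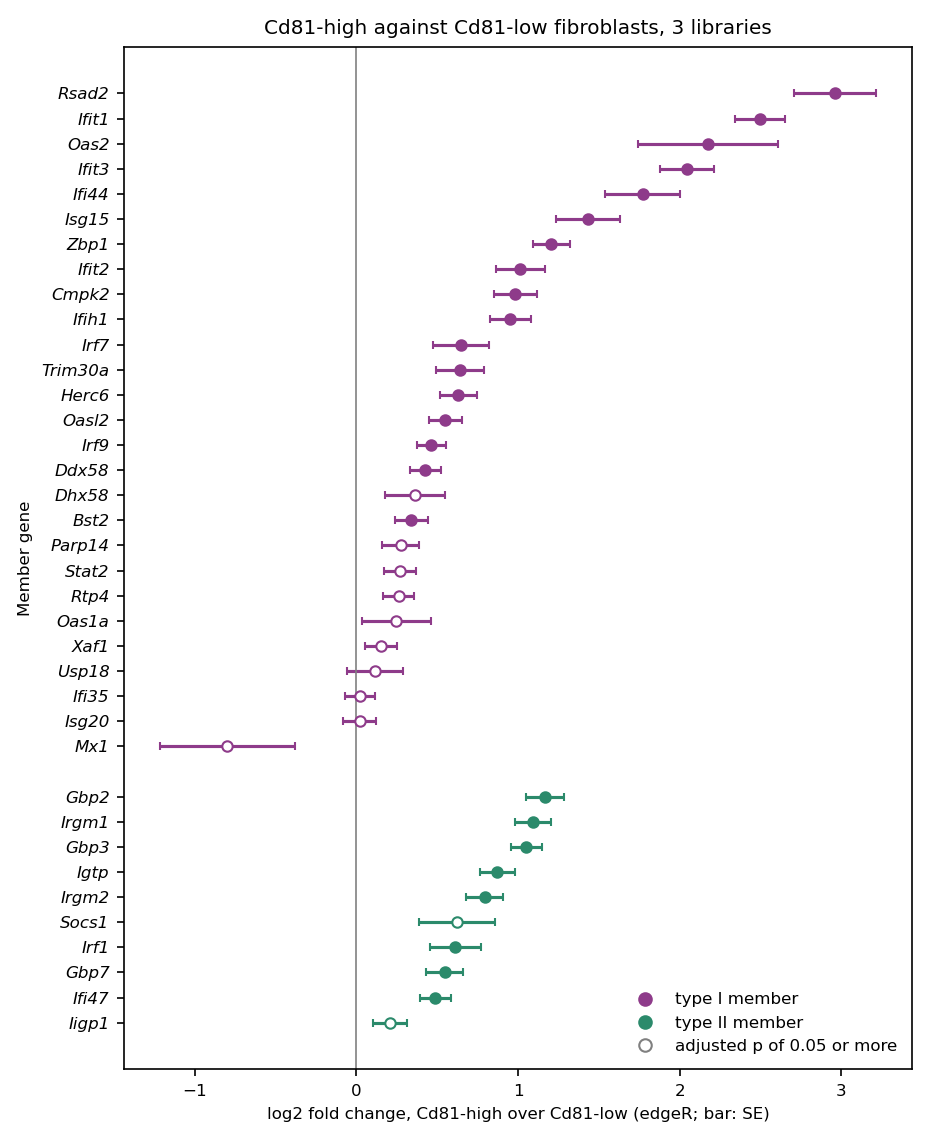
Log2 fold change of each member, Cd81-high over Cd81-low fibroblasts, with its standard error from edgeR (3 libraries, library as block). Open points did not pass an adjusted p of 0.05, and all passing members, from Bst2 at 0.34 to Rsad2 at 2.96, lie on the Cd81-high side.

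Other genes of the pathways gave the setting. Of the receptors 0 of 5 rose and 1 fell (Ifngr1, -0.43). Of the signal carriers Jak1 rose (0.45), and Irf8 (-0.81) and Tyk2 (-0.54) fell. Of the sensing genes 0 of 7 rose and 1 fell (Tmem173, -0.61). Among 38 further interferon-responsive genes 13 rose and 3 fell, and the falling genes were the lymphocyte-attracting chemokine Cxcl9 (-1.78), Ifitm1 (-2.04) and Lgals3bp (-0.40). Ifitm3, the most counted gene of that list, stood at 3084, 2952 and 2334 CPM against 2500, 2842 and 2363 CPM. Serping1, which inhibits complement C1, stood at 2388, 3256 and 2091 CPM against 1475, 2193 and 1589 CPM. Of 9 dissociation-response genes tested 2 rose, Ier2 and Nr4a1, and 0 fell. Summed over 18 such genes the level was 44174, 39505 and 53671 CPM in Cd81-high and 47383, 31906 and 34943 CPM in Cd81-low fibroblasts. Its part in the difference was not tested. The T or innate lymphoid markers summed to 0, 1.3 and 0.6 CPM in Cd81-high and 1.6, 1.0 and 1.0 CPM in Cd81-low fibroblasts, and the macrophage markers to 11.3, 7.2 and 5.3 CPM against 15.1, 24.5 and 15.2 CPM. Markers of B or plasma cells summed to 40.8, 47.6 and 56.6 CPM against 111, 451 and 222 CPM. Whether RNA of these immune cells bears on the difference between the classes was not tested.

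Counts of members 2-fold apart between libraries were near or below the share over all genes. In Cd81-high fibroblasts 0 of 37 members stood at least 2-fold above both GFP-low replicates in whole mesenchyme (3.21% of all genes) and 0 at least 2-fold below both (6.39%). In Cd81-low fibroblasts 1 member, Mx1, stood above both (3.22% of all genes) and 0 below (1.76%). The sort, the genotype and the library cannot be told apart here. The replicates differed by as much: in Cd81-high fibroblasts replicate 1 was at least 2-fold above replicate 2 for Oas1a and Igtp (5.72% of all genes) and at least 2-fold below it for Irf1 (6.33%). In Cd81-low fibroblasts replicate 1 was above for Oas1a and Ifi47 (4.76% of all genes) and below for Ifit2, Rsad2 and Ifi44 (5.89%). Oas1a stood at 3.4, 5.5 and 2.4 CPM in Cd81-high and 2.9, 5.4 and 1.9 CPM in Cd81-low fibroblasts. With different clusters filling the class in each replicate, these counts do not separate state from composition.

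Whether few cells carried the signal was read from cells thinned to 1000 UMIs each. Type I UMIs were spread more unevenly than counting alone gives: their variance over mean was 1.84, 2.33 and 2.55 in Cd81-high fibroblasts, 1.55, 1.25 and 1.56 in Cd81-low fibroblasts, 2.44 in telocytes and 3.40 in blood endothelium. A list counted at random would give 1. The excess variance relative to the squared mean was 0.824 ± 0.229 (SD, n = 3 libraries) for type I and 0.576 ± 0.118 for type II members in Cd81-high fibroblasts. In Cd81-low fibroblasts it was 0.464 ± 0.197 and 0.642 ± 0.14. For type I members it was 1.215 in telocytes and 0.752 in blood endothelium, both of whole mesenchyme alone. By this measure blood endothelium was therefore not the most uneven class, and its higher variance over mean goes with a higher mean count. The order of the lists in Cd81-high fibroblasts rested on single genes: without Ifit1 the type I value was 0.575, and without Irf1 and Socs1 the type II value was 0.775. For 7 type I genes used as an index, Ifit1, Ifit2, Ifit3, Isg15, Rsad2, Usp18 and Oasl2, the excess was 3.00, 5.95 and 4.73 in Cd81-high fibroblasts, against 0.25, 0.27 and 0.28 for the other type I members. The index excess was 3.59, 1.93 and 3.14 in Cd81-low fibroblasts, 5.93 in telocytes and 2.75 in blood endothelium. A second random thinning gave 3.42, 7.22 and 4.90 in Cd81-high and 6.99, 0.95 and 2.21 in Cd81-low fibroblasts. Single values of the index excess thus moved with the draw.

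The top 5% of Cd81-high cells held 45.4%, 46.4% and 48.6% of the UMIs of those 7 genes. They held 21.4%, 22.0% and 25.8% of all type I UMIs and 15.7%, 17.8% and 19.1% of type II UMIs, each list ranked by its own count. For the 7 genes the share was 53.7%, 51.5% and 47.0% in Cd81-low cells, 47.6% in telocytes and 37.2% in blood endothelium. The concentration was thus not particular to the Cd81-high class. Such a share also depends on the mean count of a list, which was lowest for the 7 genes. The lists are therefore not ranked by it. At least 1 type I UMI was seen in 66.2%, 73.4% and 65.7% of Cd81-high cells, 58.4%, 60.4% and 55.8% of Cd81-low cells and 86.0% of blood endothelial cells. Empty droplets held about the same type I level as these cells, so such a share includes free RNA and was not read as the share of cells that transcribe a type I member. Cells with at least 10 type I UMIs of 1000 numbered 2, 16 and 45 in the Cd81-high class and held 3.38%, 5.07% and 9.30% of its type I UMIs. In the Cd81-low class they numbered 1, 0 and 1, in telocytes 8, and in blood endothelium 33, which held 18.2%.

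The highest cell shows the extreme. A Cd81-high fibroblast of GFP-low replicate 1 held 42 type I UMIs of 1000, and 412 of its 9486 UMIs before thinning, with 107 for Rsad2, 70 for Ifit3 and 63 for Ifit1. Those 107 were 23.8% of all 450 Rsad2 UMIs of the class in that library. It also held 112 type II UMIs. The highest cell of replicate 2 held 178 type I UMIs of 7551, with 83 for Ifit1 and 44 for Isg15, but 1 for Rsad2. In the Cd81-low class of whole mesenchyme the highest cell held 182 type I UMIs of 5789, and 25.9% of that class's 54 Rsad2 UMIs.

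**Figure D4:**
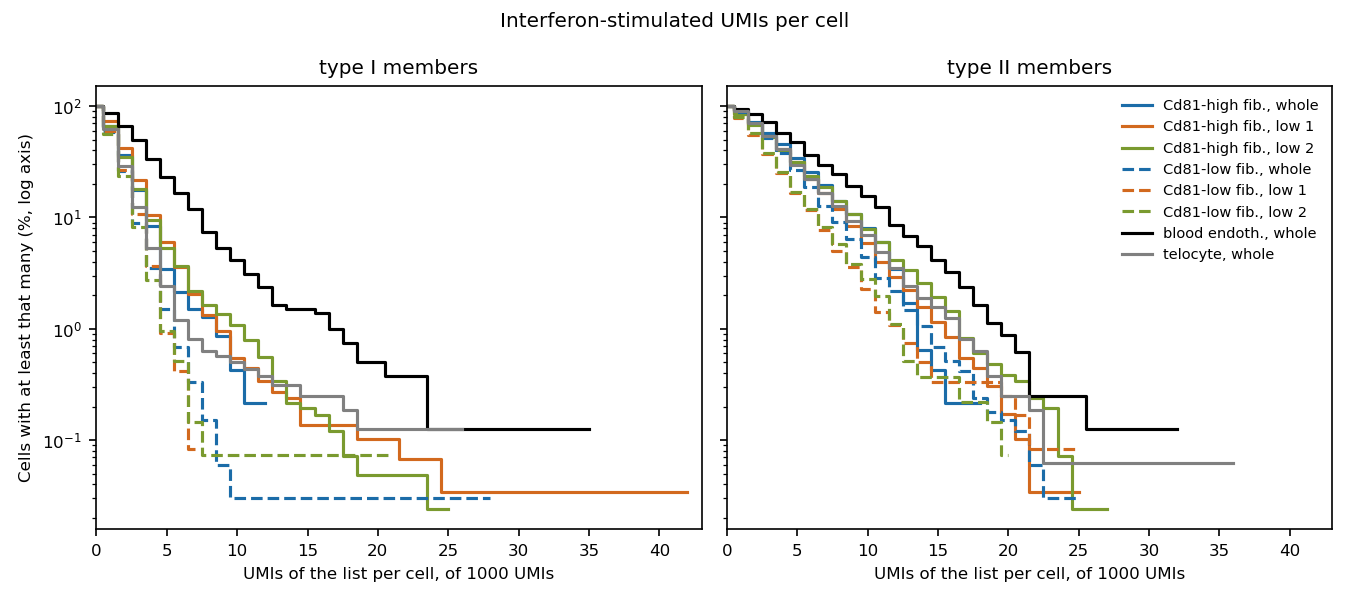
Percentage of the cells of a class (log axis) with at least k UMIs of the type I or type II members after thinning to 1000 UMIs per cell, by class and library. The Cd81-high class reaches 12, 42 and 25 type I UMIs, and counts of 10 or more are found in 2, 16 and 45 of its cells.

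Gene by gene in GFP-low replicates 1 and 2, the variance over mean in Cd81-high cells was 7.17 and 2.80 for Rsad2, 2.50 and 3.17 for Ifit1, 2.11 and 1.37 for Ifit3 and 1.80 and 1.95 for Isg15. It was 1.00 and 1.02 for Stat2 and 1.03 and 1.02 for Irf9, close to the median of all genes at 1.01 and 1.02. Bst2, at 1.12 and 1.04, lay above 91.5% and 67.5% of the genes measured. Among the index genes Ifit2 was at 0.98 and 1.04. Oasl2, at 1.07 and 1.05, lay above 85.1% and 72.4% of the genes measured. Ifih1, outside the index, was at 1.23 and 1.18. Among type II members it was 1.96 and 2.56 for Iigp1, 1.76 and 2.05 for Irf1, 1.61 and 1.91 for Gbp2 and 1.81 and 1.59 for Socs1. By this measure, which goes with the mean count, the uneven type I genes were mainly Ifit1, Ifit3, Isg15 and Rsad2. Usp18, below a mean of 0.02 UMIs per cell, has no value, so the index was not measured whole.

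Whether the same cells carried different targets was asked by choosing cells on the 7 index genes and testing the members that did not choose them. In Cd81-high fibroblasts 31, 243 and 413 cells (6.62%, 8.25% and 9.93%) had at least 2 index UMIs of 1000, and 359, 2218 and 3015 had none. Against those with none, by edgeR's quasi-likelihood test paired by library over 5827 genes without the index genes, 10 of the 15 other type I members that passed the low-count filter and 9 of 10 type II members were higher in the cells with index UMIs and 0 were lower. Of all genes tested 2.85% were higher and 0.481% lower. With no low-count filter, 11 of all 20 other type I members with an entry were higher. The median log2 fold change was 1.16 for the other type I members and 1.21 for the type II members, against -0.02 for all genes. Without GFP-low replicate 2 the count of other type I members was 6, and without replicate 1 it was 8. Most cells with at least 2 index UMIs came from 1 cluster: cluster 3 held 19 of 31 in whole mesenchyme and 186 of 243 in replicate 1. Cluster 1 held 304 of 413 in replicate 2. Over all their cells these clusters had type II sums of 4583 CPM (cluster 3, replicate 1) and 5067 CPM (cluster 1, replicate 2). That sum was 2929 CPM in cluster 4 of replicate 1 and 1892 CPM in cluster 12 of replicate 2. The fit was not blocked by cluster, so clusters and single cells cannot be told apart in it.

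With 0, 1 and at least 2 index UMIs, the type II sum was 3610, 4321 and 6000 CPM in whole mesenchyme, 3133, 4500 and 6185 CPM in GFP-low replicate 1, and 3041, 4572 and 7441 CPM in replicate 2. The sum of the other type I members was 919, 1167 and 1839 CPM, then 1124, 1337 and 1922 CPM, then 804, 1038 and 1593 CPM. In every library each step was upward for both lists. Rtp4, a receptor transport protein, rose by 2.0 on the log2 scale, Irf7 by 1.90, Irgm1 by 1.76 ± 0.14 (SE, adjusted p = 2.5e-25 by edgeR), Cmpk2 by 1.75 and Parp14 by 1.55. Socs1 rose by 1.48, Gbp2 and Ifih1 by 1.44, Ddx58 by 1.35, Gbp7 by 1.25, Iigp1 by 1.15 and Irf1 by 0.96. Bst2 (0.28), Stat2 (0.59), Irf9 (0.66), Ifi35 and Isg20 did not pass, nor did Irgm2 (0.16), which was the type II exception although its promoter stretch nearly repeats that of Igtp, which rose by 0.87.

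**Figure D5:**
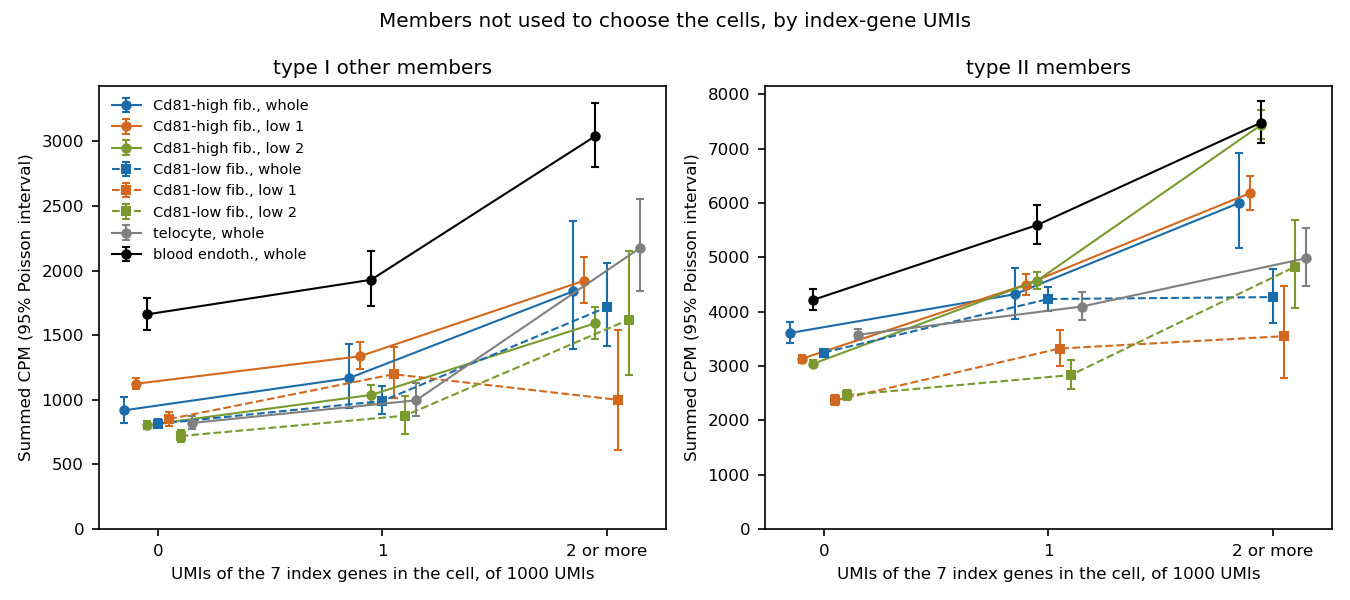
Summed level (CPM, with exact 95% Poisson intervals for counting error) of the other type I members and of the type II members in cells with 0, 1 and at least 2 UMIs of the 7 index genes, by class and library. In Cd81-high fibroblasts the type II sum goes from 3610, 3133 and 3041 CPM at 0 index UMIs to 6000, 6185 and 7441 CPM at 2 or more.

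Of the wider interferon-responsive list 15 of 32 genes rose in the same cells. They included Ifit3b (3.22), but its near-identical copy Ifit3 helped choose the cells, so its rise is not independent of that choice. Others were the chemokines Cxcl10 (2.19) and Cxcl9 (2.06) and the checkpoint ligand Cd274 (2.07). Of the signal carriers 3 of 7 rose (Jak1, Irf8 and Socs3), of the sensing genes 1 of 3 (Mb21d1, encoding cGAS), and of the receptors 0 of 5. Outside the lists the largest rises among genes that moved the same way in all 3 libraries were the olfactory receptor gene Olfr56 (2.27), Ifi203 (2.07), Serpina3f (2.05), Rasa4 and B230217C12Rik (1.97). The largest falls were Cdr2 (-2.06), Rpp25l (-1.61), Col15a1 (-1.56), Tnc (-1.29) and Igfbp5 (-1.19). In the cells with at least 2 index UMIs, Cdr2, Rpp25l and Col15a1 rest on 4, 7 and 8 UMIs, and Rasa4 and B230217C12Rik on 12 and 14. Col15a1, Tnc and Igfbp5 encode secreted matrix or growth-factor-binding proteins. Col15a1 was also a marker of the Cd81-low class, and Tnc and Igfbp5 were among the leading genes of its cluster 6.

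Other measures moved with the index cells. Of 18 dissociation-response genes 6 rose (Atf3, Jun, Dnajb1, Junb, Myc and Egr1), and their sum with 0, 1 and at least 2 index UMIs was 42602, 46321 and 46194 CPM, then 36343, 41595 and 51675 CPM, then 49236, 52977 and 59930 CPM. Median depth before thinning was 6348, 6743 and 7406 UMIs in the cells with no index UMI and 7152, 7040 and 8064 UMIs in those with at least 2, and its part was not tested beyond the thinning to an equal depth. Clusters differed in the same way. The share of cells with at least 2 index UMIs was 16.3% in cluster 1 of GFP-low replicate 2 and 14.5% in cluster 3 of replicate 1, where the dissociation sum was 67799 and 55061 CPM. It was 3.24% in cluster 4 of replicate 1 and 1.81% in cluster 12 of replicate 2, where that sum was 24523 and 6203 CPM. Ifit1 in those 4 clusters stood at 257, 163, 32.4 and 23.3 CPM, and Irf1 at 1823, 1016, 278 and 158 CPM. The order was not complete: cluster 1 in whole mesenchyme had a dissociation sum of 63519 CPM with 5.80% of cells at 2 or more index UMIs and Ifit1 at 28.8 CPM. Cluster 11 of replicate 2 had 54401 CPM with 5.29%. The part of the dissociation response in the result was not tested.

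In Cd81-low fibroblasts 67, 20 and 29 cells (2.01%, 1.67% and 2.13%) had at least 2 index UMIs. By edgeR 0 of 7374 genes passed (0% of all genes), with 341 at an unadjusted p under 0.05, among them 2 of 15 other type I and 2 of 10 type II members, and DESeq2 also called 0. On data simulated for these sums, at a fixed spread smaller than the one estimated here, the test recovered 31 of 100 genes changed 4-fold. Its power was thus low. The type II sum with 0, 1 and at least 2 index UMIs was 3249, 4234 and 4269 CPM, then 2369, 3322 and 3550 CPM, then 2466, 2834 and 4828 CPM, upward at each step. The sum of the other type I members was 815, 991 and 1716 CPM, then 852, 1198 and 1000 CPM, then 720, 877 and 1621 CPM. With cells thinned to 2000 UMIs instead, 7 of 17 other type I and 8 of 10 type II members passed. The share over all genes at that depth is not given here, so these counts are not read as particular to the members. Of the 26 members that could be tested for a difference between the classes in this response, 0 passed, and Irgm1 had the estimate farthest from 0, -1.53 (Cd81-low minus Cd81-high, log2, adjusted p = 0.087 by edgeR). This test was chosen after the values were seen.

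Cells with at least 2 index UMIs made up 24.6% of blood endothelial cells (197 of 801) and 4.26% of telocytes (68 of 1596). In blood endothelium the type II sum with 0, 1 and at least 2 index UMIs was 4216, 5595 and 7482 CPM and the sum of the other type I members 1661, 1929 and 3041 CPM. In telocytes the sums were 3575, 4096 and 4985 CPM and 821, 996 and 2176 CPM. Each is 1 library with no replicate check, and each step was upward.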

How the data were processed

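The authors counted UMIs per gene and barcode with Cell Ranger 3.0.2 on mm10, per the submitters' processing notes, from the Single Cell 3′ V3.1 assay per the labels' protocols. The deposited counts are unnormalized and cover 31053 genes. Totals were 41863444, 39190629 and 52313765 UMIs in whole mesenchyme and GFP-low replicates 1 and 2.

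Genes were divided at random (seed 1). Markers helped form the clusters (scanpy 1.11.5, Leiden resolution 1), and all interferon lists were held out. Scrublet marked 2, 3 and 3 cells, too few to have worked, so no doublets were removed. An alternative dropped the top 6% of scores. UMIs were summed per library and class (at least 20 cells) and tested in edgeR 4.0.16 (R 4.3.3, TMM, quasi-likelihood) with the library as block, because both sums come from the same library. Standard errors are the absolute log2 fold change divided by the root of its F statistic. The threshold was an adjusted p of 0.05. DESeq2 1.42.0 was an alternative. Intervals are exact 95% Poisson intervals for counting error. Tested on simulated data, the class comparison recovered 94 of 100 genes changed 2-fold, and the index comparison in Cd81-high fibroblasts 47. The simulations used the same fixed spread for every comparison and not the spread estimated in each.

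Values in every library are given for the 7 type I and 5 type II members with most UMIs, for members that passed the class test or stood at least 2-fold apart between libraries with at least 100 UMIs, for up to 3 members leading a class, and for up to 3 genes of each other list. A gene of the signalling list is not reported here. Outside the lists the 5 largest changes in each direction are named. The members and lists were chosen with earlier results of these data known. The test between classes of the index response, the highest-cell values, the filter on the fibroblast level alone and the fit without the shallow Adamdec1 cluster 9 were added after seeing the data.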

Additional observations from a re-analysis of the deposited data

Results flagged for a closer look

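The difference between cells with at least 2 index UMIs and cells with none was compared between the fibroblast classes by an interaction term in edgeR, chosen after the data were seen, and 9 of 6514 genes passed. None of the 26 members tested passed. Of these 26, 7 had an unadjusted p under 0.05 (6.88% of all genes) and 20 a smaller estimate in Cd81-low fibroblasts (66.2% of all genes). Of the pathway genes outside the members 3 passed, each with a smaller response in Cd81-low than in Cd81-high fibroblasts. For the chemokine Cxcl9 the difference was -2.33 on the log2 scale (adjusted p = 9.1e-10), for the chemokine Cxcl10 it was -1.80 (adjusted p = 4.7e-08), and for the feedback inhibitor Socs3 it was -1.11 (adjusted p = 0.047).

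Cxcl9 stood at 53.6 and 50.8 CPM in Cd81-high cells with no index UMI of GFP-low replicates 1 and 2 and at 247 and 201 CPM in those with at least 2, but at 91.9 and 96.8 CPM in whole mesenchyme. In Cd81-low fibroblasts it stood at 379, 190 and 372 CPM with none and 358, 350 and 241 CPM with at least 2, in the order whole mesenchyme, replicate 1 and replicate 2. The Cd81-low cells with at least 2 number 67, 20 and 29, and their Cxcl9 values rest on 24, 7 and 7 UMIs.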

How the results depend on the processing

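For Cd81-high against Cd81-low fibroblasts, 0 members were lower under any setting. Leaving out 1 library gave 13 to 20 type I and 6 to 10 type II members higher. Without the replicate block the counts were 8 and 4. Over all genes the 875 higher and 948 lower became 378 and 452 without the replicate block, 442 and 474 in cells thinned to 1000 UMIs, and 739 and 1195 without composition factors.

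For the index comparison in Cd81-high fibroblasts (10 other type I and 9 type II members), counts without the replicate block were 4 and 1. Leaving out 1 library gave 6 to 12 and 6 to 9. Thinning to 2000 UMIs gave 16 other type I members, and choosing cells by the other members instead gave 5 of the 7 index genes. The 166 higher and 28 lower genes became 54 and 4 by DESeq2, 88 and 11 without the low-count filter, 16 and 0 without the replicate block, 79 and 7 without GFP-low replicate 1, 53 and 4 without replicate 2, 378 and 86 at 2000 UMIs, and 68 and 14 in cells chosen by the other members. In Cd81-low fibroblasts the counts of 0 became 7 and 8 at 2000 UMIs, 2 and 4 with cells chosen by the other members, and 6 type II members with at least 1 index UMI. Shares over all genes under these Cd81-low settings are not given here.

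Without Ifit1 the excess variance of type I members in Cd81-high fibroblasts was 0.575, no longer above the type II value of 0.576, and without Irf1 and Socs1 that of type II members was 0.775 (Cd81-high) and 0.898 (Cd81-low). With the 20 CPM limit on fibroblasts alone, a filter added after seeing the data, the telocyte count of 2 became 0. With TMM scaling 1 member (Socs1) was at least 2-fold lower in whole mesenchyme in Cd81-high fibroblasts, and replicate 1 was above replicate 2 for 1 member in each class. With empty droplets of at most 50 UMIs the type I sum of replicate 1 was 1409 CPM, and the type II sums of replicates 1 and 2 were 2771 and 3139 CPM. The cause of these changes was not tested. The smallest sums of the index comparison hold 31 cells in the Cd81-high class (whole mesenchyme) and 20 in the Cd81-low class (GFP-low replicate 1).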
